A study of Mus musculus with 12 samples.

Results

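The genes described here build the receiving side of the synapse: 37 genes for postsynaptic scaffold and adhesion proteins. Each was chosen by name from the 27398 names in the probe annotation of the cerebellum arrays, applied to all arrays. They were measured by 72 probes of the 41174 on the array, 16 genes by 1 probe and 21 by more than 1. Total RNA came from whole hippocampus and from cerebellum of adult mice, either En2WT (wild type, WT) or En2KO (En2-/-, lacking the homeobox transcription factor Engrailed-2), littermates from heterozygous matings. The line began on a mixed 129Sv x C57BL/6 and outbred background and had been backcrossed repeatedly to C57BL/6. The mutation was present in every cell of the animal, so no cell type was targeted. Each of the 4 groups (WT cerebellum, En2-/- cerebellum, WT hippocampus, En2-/- hippocampus) had 3 arrays, 1 for each of 3 mice of each genotype. Several members are autism candidate genes, and the questions asked of them were which related genes differ between the regions and which differ between En2-/- and WT mice within a region.

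At an excitatory synapse, adhesion proteins such as the neuroligins, the Lrrtm proteins and the netrin-G ligands of the Lrrc4 family bind partners on the presynaptic terminal. Their tails, and the glutamate receptors, attach to the Dlg scaffolds, of which Dlg4 (PSD-95) is the best known, and a chain of Dlgap, Shank and Homer proteins links these to the actin skeleton and to intracellular calcium stores. The calcium and calmodulin dependent kinase made of Camk2a and Camk2b subunits sits in the same structure and is central to plasticity in hippocampal pyramidal cells. Contactins, their Cntnap partners and Nrcam act at contacts along axons as well as at synapses.

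Signals are given as log2 values on a common quantile scale over the 12 arrays. A probe was tested where it passed the background call on each of the 3 arrays in 1 or more of the groups compared, and a difference was called at an adjusted p under 0.05 (limma, Benjamini-Hochberg over all probes tested). Of the member probes, 56 were well above background on all 12 arrays, 65 were tested in at least 1 comparison and 7 in none. Those 7 were 1 probe each of Nlgn1, Dlg2, Cntn4, Lrrtm4 and Camk2b and 2 of Cntnap4, all of them genes with another, brighter probe. Where 1 probe stands for a gene, it is the one with the highest mean signal. The brightness of probes was not read as an RNA level, since it depends on the probe as well.

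Arrays had between 62.3% and 73.0% of spots well above background and a median signal between 5.72 and 10.4 times background, and replicate arrays correlated at 0.960 or higher across probes. Neurod6, a transcription factor of forebrain excitatory neurons, averaged 13.1 in WT hippocampus and 7.34 in WT cerebellum, and Gabra6, a receptor subunit of cerebellar granule cells, averaged 14.8 in WT cerebellum and 2.6 in WT hippocampus. Tyro3, listed as a hippocampal marker, went the other way, at 11.4 in WT hippocampus and 11.9 in WT cerebellum. The En2 probe averaged 14.5 in En2-/- and 14.2 in WT cerebellum. According to the study this probe lies outside the deleted part of the gene, so its level does not check the genotype labels. Xist was well above background on 12 of 12 arrays by each of its probes, and Ddx3y, Eif2s3y, Kdm5d and Uty on 0 of 12, although the study used mice of both sexes. WT cerebellum replicate 3 lay farthest from its group mean, with a root mean square deviation of 0.443 across 22941 probes. The next was 0.391, for En2-/- cerebellum replicate 2. Its median signal over background was the lowest, at 5.72, but close to the 5.78 of WT hippocampus replicate 2. Deviations followed the GC content of the probes on this array (r = -0.42) and, with the opposite sign, on WT cerebellum replicate 1 (0.46). Deviations from a group mean balance out within the group, so these values cannot tell which array carries the GC pattern. Results that rest on replicate 3 are given with and without it.

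The probes that the results turn on are identified here by their genomic match in mouse build mm9, as the array files give it, and by the first 30 of their 60 bases, 5′ to 3′ and in lower case. They are shown for the genes whose probes differed from each other or whose hippocampal levels differed by genotype. No mm9 annotation was used, so exons and untranslated regions were not assigned.
Homer1 A_51_P387159, chr13:94075013-94075072, plus strand: aagtgctatattctccgcgcaaccttttca
Homer1 A_51_P387160, chr13:94075212-94111724, plus strand: cataagagcagaaacttcagagcaagtttt
Homer1 A_52_P37991, chr13:94129858-94129917, plus strand: tcattagaccctaatagaccaagttatatg
Homer1 A_52_P151211, chr13:94173265-94173324, plus strand: tcaaacttcacaaggctatattttgaactg
Nrcam A_51_P306247, chr12:45647740-45647799, plus strand: atataggttagtggcaagggctataatgct
Nrcam A_51_P180413, chr12:45699579-45699638, plus strand: ttaagctctgtgccaatgtctaatctctct
Nrcam A_52_P148222, chr12:45700041-45700100, plus strand: tgttaaactcgtgactatgtctagctggtg
Dlg4 A_51_P302256, chr11:69853342-69854879, plus strand: ccaagcggggcttctatatcagggccctgt
Dlg4 A_52_P153721, chr11:69858304-69858363, plus strand: cttatttatttcctttctgactggatcgag
Dlgap4 A_52_P600038, chr2:156571885-156574079, plus strand: cattccgaggccatccccaaaaggaaactg
Dlgap4 A_51_P343739, chr2:156588691-156588750, plus strand: atggaacagcgtttctcacccttcagtatg
Baiap2 A_52_P290202, chr11:119860001-119860492, plus strand: acagattgcatatgagcctgcagcagggca
Baiap2 A_52_P38436, chr11:119863703-119863762, plus strand: ggacctgtgtaaagaactttctgtgttgtt
Cttn A_51_P399664, chr7:151636935-151637932, minus strand: gactataagactggtttcggaggcaaattt
Cttn A_52_P326214, chr7:151622776-151622835, minus strand: ggttcacactacagagcatctgcgtgtgtt
Lrrc4b A_52_P467545, chr7:51717750-51717809, plus strand: acggagaatgcgcttaaggacctagacgat
A match longer than 60 bases, as for the first Dlg4 and the second Homer1 probe, is interrupted by a gap in the genome.

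Most of these genes had less RNA in WT cerebellum than in WT hippocampus. Of 65 member probes tested, 31 were lower and 6 higher in cerebellum, together 56.9%, against 24.0% of all 27389 probes called in either direction (11.6% lower and 12.3% higher). The median log2 difference, cerebellum minus hippocampus, was -0.89 over the member probes and 0.04 over all probes. The lower probes belonged to 21 genes and the higher ones to 4, namely Cntn4, Cntn6, Cntnap4 and Lrrtm3. The groups did not overlap for 66.2% of member probes, against 41.9% of all probes. In tissue extracts, fewer cells of a type and less RNA per cell cannot be told apart.

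The kinase subunits were at the extreme. Camk2a, whose subunit predominates in forebrain kinase, read 17.07, 17.16 and 16.69 on the WT hippocampus arrays and 12.78, 12.63 and 11.86 on the WT cerebellum arrays by probe A_52_P189707. The regions were far apart on every array, by -4.55 on the log2 scale (SE 0.29, adjusted p = 2.27e-05 by limma), or 23.4-fold. Its second probe, A_51_P343218, was dim, well above background on 2 of 3 WT cerebellum arrays, and was also lower there (-1.51, SE 0.41, adjusted p = 0.0293 by limma). Camk2b differed by -0.87 (SE 0.21, adjusted p = 0.0175 by limma).

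Among the scaffolds, every Dlgap gene was lower in WT cerebellum by at least 1 probe, with 6 of 9 probes called. Dlgap2 had the steepest difference, with 11.46, 10.92 and 11.64 in WT hippocampus against 7.99, 8.31 and 7.86 in WT cerebellum by probe A_52_P68306 (-3.28, SE 0.26, adjusted p = 6.17e-05 by limma). Its second probe, A_52_P632142, differed by only -0.27 (SE 0.26). Dlgap3, with no usable spot on WT cerebellum replicate 2, differed by -1.46 (SE 0.29, adjusted p = 0.0105 by limma). Of the 4 Dlg scaffolds, Dlg3 was lower in cerebellum (-1.26, SE 0.24, adjusted p = 0.00558 by limma), whereas no probe of Dlg1 or Dlg2 was called. Dlg4 was lower by 1 of its 2 probes, A_51_P302256 (-1.94, SE 0.60, adjusted p = 0.048 by limma). The larger difference of the other, A_52_P153721 (-2.64), missed the threshold (SE 0.90, adjusted p = 0.0668 by limma), its WT cerebellum values being 10.31, 9.95 and 6.40. Without WT cerebellum replicate 3, the lowest of these, both Dlg4 probes were called lower, with smaller differences of -1.15, adjusted p = 0.0263 by limma and -1.40, adjusted p = 0.0195 by limma.

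Homer1 and Homer2, which bind Shank and the metabotropic glutamate receptors, were lower in WT cerebellum by all 7 of their probes. For Homer1 the probe A_52_P151211 read 11.72, 12.10 and 11.59 in WT hippocampus and 9.13, 9.39 and 10.24 in WT cerebellum (-2.21, SE 0.32, adjusted p = 0.00146 by limma). The probe between it and the upstream pair, A_52_P37991, differed most, by -2.98 (SE 0.24), and the upstream pair differed by -1.62 (SE 0.26) and -1.87 (SE 0.25). In the annotation of the hippocampus arrays A_52_P37991 is named C330006P03Rik, and the Homer2 probe A_52_P343298 is named 9330120H11Rik. Both are Homer probes by the cerebellum annotation. Homer1 is known to be made in long and short forms, but which form each probe reads was not worked out. For Homer2, A_51_P352303 read 12.85, 12.79 and 12.34 in WT hippocampus and 10.31, 10.48 and 9.82 in WT cerebellum (-2.46, SE 0.26, adjusted p = 0.000296 by limma). Shank3 was lower too (-1.26, SE 0.29, adjusted p = 0.0148 by limma). Shank1 and Shank2 were not called, at -1.08 (SE 0.73) and -0.89 (SE 0.43), and at -0.15 and -0.48 without WT cerebellum replicate 3.

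Of the adhesion genes with leucine-rich repeats, Slitrk5, a ligand of receptor tyrosine phosphatases, had the largest difference. Its values were 11.55, 10.80 and 10.32 in WT hippocampus and 8.33, 8.19 and 8.01 in WT cerebellum (-2.71, SE 0.32, adjusted p = 0.000514 by limma). Slitrk1, Lrrtm1, Lrrtm4, Lrrc4c and the interleukin receptor relative Il1rapl1 were also lower in cerebellum, by between -0.88 for Il1rapl1 and -1.89 for Lrrtm1. Lrrtm3 went the other way, at 11.30, 11.26 and 12.49 in WT cerebellum against 10.12, 10.51 and 10.39 in WT hippocampus (1.34, SE 0.35, adjusted p = 0.0236 by limma). The regions did not overlap, but the highest cerebellum value was on replicate 3, and without that array the difference was 0.94. Without any 1 of the WT hippocampus arrays the Lrrtm3 call was lost (adjusted p from 0.0566 to 0.0908 by limma). Lrrc4, Lrrc4b and both probes of Lrrtm2 were not called. Without WT cerebellum replicate 3, Lrrc4 was called lower, at -0.92, adjusted p = 0.0211 by limma.

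In the neuroligin family, Nlgn1, the member of excitatory synapses, was lower in WT cerebellum (-1.16, SE 0.32, adjusted p = 0.0328 by limma). Nlgn2, the member of inhibitory synapses, and Nlgn3 were not called, at -0.73 (SE 0.25) and -0.85 (SE 0.37). The Nlgn1 call was kept without WT cerebellum replicate 3 (-1.45, adjusted p = 0.00875 by limma) and lost without any other single WT array. Nlgn2 was called lower with normexp background correction and with 1 probe per gene. A contrast between Nlgn1 and Nlgn2 is therefore not shown by these calls, and their balance within arrays is given below.

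Most probes higher in cerebellum were for contactins and their partners. Cntn6, a contactin of cerebellar granule cells, read 10.61, 10.70 and 10.87 in WT cerebellum and 8.01, 8.30 and 8.27 in WT hippocampus by A_51_P253279 (2.53, SE 0.21, adjusted p = 7.75e-05 by limma), and its second probe differed by 2.65. Cntnap4 read 11.51, 11.85 and 11.50 against 10.25, 10.42 and 10.66 (1.18, SE 0.22, adjusted p = 0.00611 by limma). Cntn4 was higher by 2 probes (1.17 and 1.54) but not by the brightest, A_52_P271671 (0.15, SE 0.31). Nrcam was lower by 2 of 3 probes, at -1.03 and -1.35, and Cntnap2 by 1 of 3, a call lost without WT cerebellum replicate 3 (-0.71, adjusted p = 0.0577 by limma). Both probes of Baiap2, an adaptor between membrane and actin, were lower (-1.82 and -1.44), while Cttn, the branched actin binder cortactin, was at 1.08 and -0.47 by its 2 probes, neither called. Without WT cerebellum replicate 3 these were 1.53, adjusted p = 0.00331 by limma, then called higher, and 0.03, adjusted p = 0.944 by limma, so the opposite sign rested on that array.

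**Figure D1:**
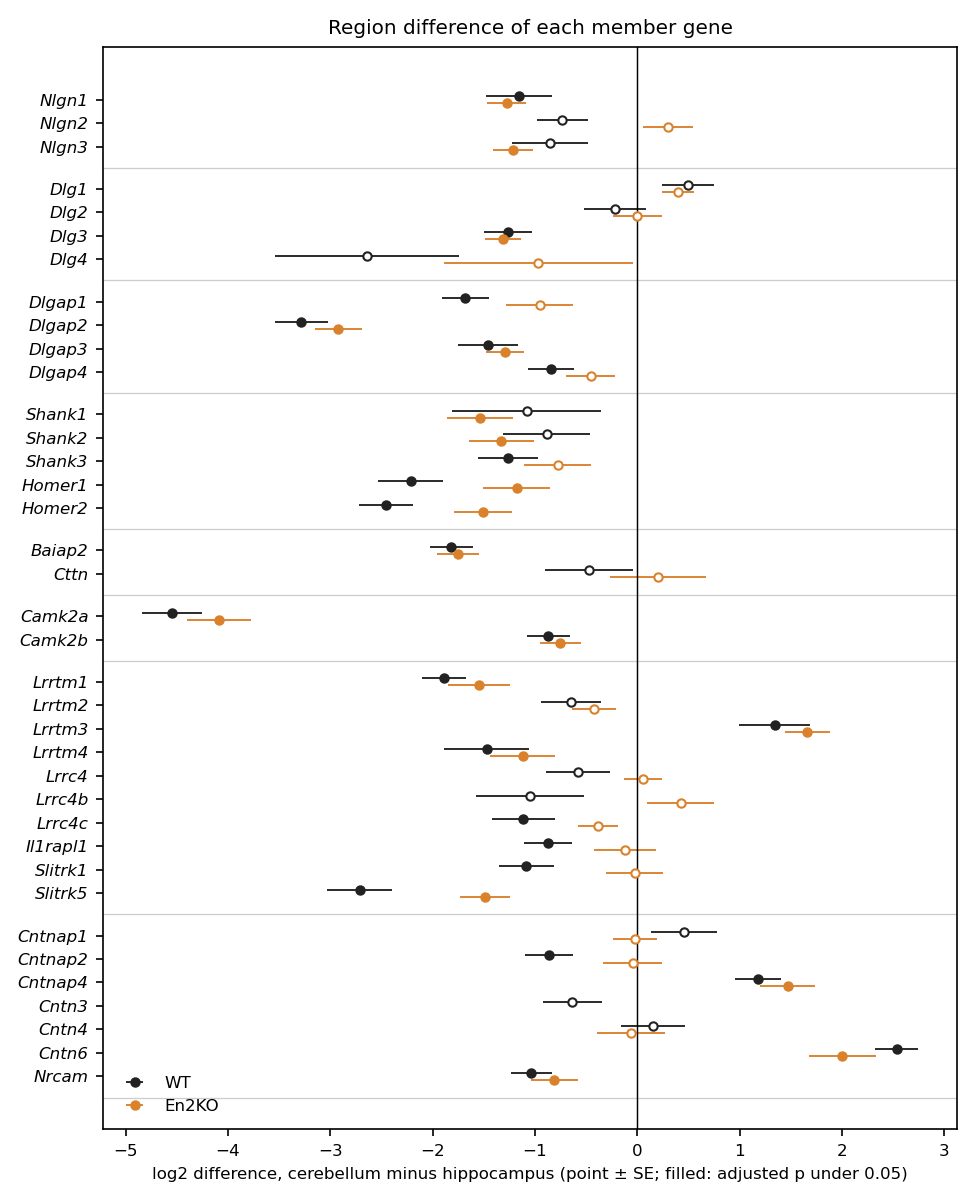
The log2 difference, cerebellum minus hippocampus, of each member gene by its brightest probe (vertical axis, grouped by role), in WT (black) and En2-/- mice (orange); points are limma estimates with SE from 3 against 3 arrays, filled where the adjusted p is under 0.05. Camk2a lies farthest to the left at -4.55 in WT, and Cntn6, Lrrtm3 and Cntnap4 lie to the right of 0 in both genotypes.

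The En2-/- arrays, which share no array with the WT comparison, gave a like picture. Of 64 member probes tested there, 26 were lower and 10 higher in cerebellum, together 56.2%, against 24.4% of all 27070 probes (11.6% lower and 12.8% higher). The groups did not overlap for 70.3% of member probes, against 43.5% of all probes. Calls in both genotypes and in the same direction were made for 27 probes, 21 lower and 6 higher, which is 27 of 37 WT calls and 27 of 36 En2-/- calls among the probes tested in both. For all probes those shares were 61.5% and 60.0%. Camk2a differed by -4.09 (SE 0.31), Dlgap2 by -2.92 (SE 0.23), Slitrk5 by -1.49 (SE 0.24), Homer2 by -1.51 (SE 0.28), Homer1 by -1.18 (SE 0.33) and Cntn6 A_52_P412452 by 2.33 (SE 0.31).

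Genes called between regions in En2-/- but not in WT mice were Nlgn3 (-1.22), Shank1 (-1.54) and Shank2 (-1.33), all lower in cerebellum, and 1 probe each of Dlg1 (1.13), Dlg2 (2.59) and Cttn, higher there. Called in WT but not in En2-/- mice were Dlg4, Dlgap4, Shank3, Lrrc4c, Il1rapl1, Cntnap2 and Slitrk1. No interaction was called for any of them, so these are not shown to be differences between the genotypes. Dlgap1 was the one gene with called probes of opposite sign. Its probes A_52_P443073 and A_52_P445843 were lower in En2-/- cerebellum (-1.17 and -1.78), whereas A_52_P444618 read 4.89, 6.10 and 4.62 there and 3.86, 3.85 and 2.91 in En2-/- hippocampus. It was not well above background on any En2-/- hippocampus array, so that it was at least 1.41-fold higher in cerebellum (adjusted p = 0.0307 by limma).

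Differences between related genes within one array cancel whatever shifts the whole array, and show where the balance of a family differs by region. Each gene stood by its brightest probe, and the log2 difference between the members of a pair was compared between regions by exact two-sided permutation of the region labels within genotype, 400 arrangements with a smallest possible p of 0.005, adjusted over the 34 pairs tested of 36. The balance differed between regions for 21 pairs, and for 12 pairs every cerebellum array lay outside the range of the hippocampus arrays. No share over pairs of other genes was worked out. These counts are therefore not set against a background and do not mark these families as particular. The shift was greatest for Camk2a against Camk2b, at -3.68 in WT and -3.34 in En2-/- mice (exact permutation p = 0.005, adjusted p = 0.012). Cerebellum thus carried less Camk2a relative to Camk2b than hippocampus on all arrays.

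In the Lrrtm family, Lrrtm3 stood against the others. Relative to Lrrtm3, cerebellum had less Lrrtm1 (-3.23 in WT, -3.21 in En2-/-), less Lrrtm2 (-1.99 and -2.09) and less Lrrtm4 (the Lrrtm3 minus Lrrtm4 difference shifted by 2.82 and 2.78). In the Dlgap family the balance moved away from Dlgap2 by its brightest probe, by -2.44 in WT and -2.47 in En2-/- mice against Dlgap4. The second Dlgap2 probe, A_52_P632142, differed between WT regions by only -0.27, less than the -0.84 of Dlgap4. This shift therefore depended on the probe. Among the Dlg scaffolds, cerebellum had more Dlg1 relative to Dlg3 (1.76 and 1.71), with each of these shifts at an exact permutation p of 0.005. The shift between Dlg1 and Dlg4 was 3.14 in WT and 1.36 in En2-/- mice (exact permutation p = 0.03, adjusted p = 0.049). Without WT cerebellum replicate 3 the WT shift was 1.70 and the pair was not called (exact permutation p = 0.05, adjusted p = 0.085).

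Among the axonal adhesion genes, Cntn4 relative to Cntn6 shifted by -2.38 in WT and -2.06 in En2-/- mice, and Cntnap2 relative to Cntnap4 by -2.04 and -1.51. The Cntn4 probe used differed between WT regions by 0.15, and its other tested probes by 1.17 and 1.54. The size of the Cntn4 shift therefore depended on the probe. Slitrk1 relative to Slitrk5 shifted by 1.63 and 1.46. The Homer pair and the 3 Shank pairs were not called. Homer1 and Homer2 were both lower in cerebellum and the shift of their balance was 0.24 in WT, or -0.27 without WT cerebellum replicate 3, and 0.33 in En2-/- mice (exact permutation p = 0.38 with all arrays). Nlgn1 relative to Nlgn2 shifted by -0.42 in WT and -1.58 in En2-/- mice (exact permutation p = 0.03, adjusted p = 0.049). Without WT cerebellum replicate 3 the WT shift was -0.91 and the pair was still called (exact permutation p = 0.01, adjusted p = 0.021). Nlgn2 relative to Nlgn3 shifted by 0.12 and 1.52 (exact permutation p = 0.025, adjusted p = 0.047) and was not called without that array (exact permutation p = 0.055, adjusted p = 0.089). Leaving out any single array gave between 16 and 20 called pairs.

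**Figure D2:**
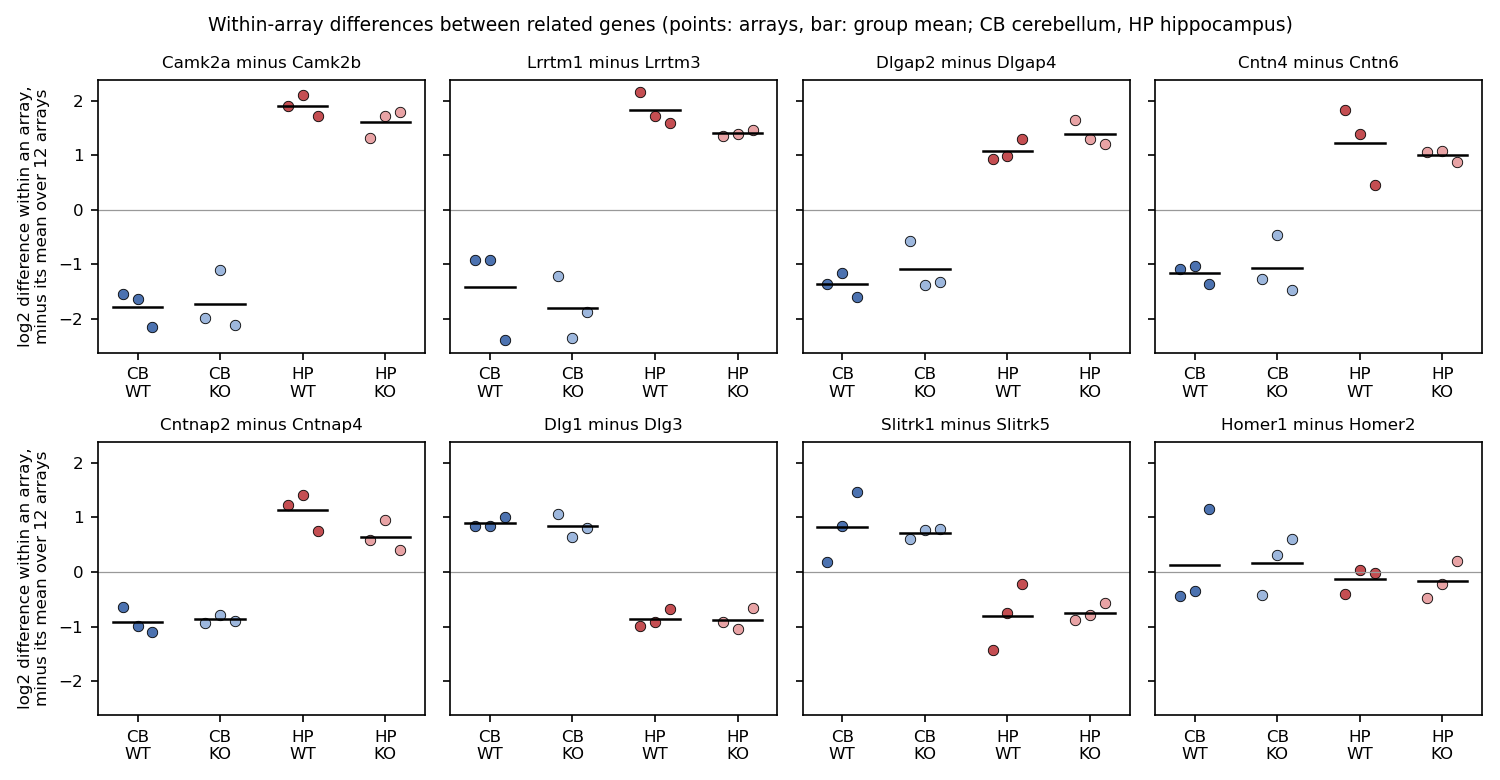
Log2 difference between 2 related genes within each array, centred on its mean over the 12 arrays (vertical axis), for the 4 groups; points are arrays and bars are group means. The regions separate completely in 7 of the 8 panels, and overlap for Homer1 minus Homer2.

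In hippocampus, 2 member probes were called lower in En2-/- than in WT mice, a share near that of all probes. Both calls depended on the processing, as given below. Most remaining differences had the same sign without passing the test. Of 62 member probes tested, 2 were lower and 0 higher, together 3.23%, against 2.12% of all 25662 probes (1.22% lower and 0.904% higher). Of the 62 log2 differences, En2-/- minus WT, 49 were below 0 (79.0%, against 48.1% of all probes), and the median was -0.28 for member probes and 0.02 for all probes. At an unadjusted p under 0.05 there were 14 lower and 1 higher, 22.6% and 1.61% of member probes, against 11.2% and 10.1% of all probes (24.2% against 21.2% in either direction). En2-/- and WT arrays did not overlap for 29.0% of member probes, against 27.9% of all probes, and En2-/- lay below WT for 27.4%, against 13.5%. The members were measured on the same arrays and are not replicates of the genotype.

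Lrrc4b, a netrin-G ligand family member that binds the phosphatase LAR, read 10.79, 10.15 and 9.82 on the WT arrays and 8.86, 8.89 and 8.90 on the En2-/- arrays. It fell by 1.37 on the log2 scale (SE 0.25, adjusted p = 0.0405 by limma), or 2.58-fold. Its 2 relatives had smaller values, -0.23 (SE 0.19) for Lrrc4 and -0.38 (SE 0.20) for Lrrc4c. Cttn read 5.91, 6.23 and 6.40 in WT and 5.02, 4.78 and 5.27 in En2-/- mice by A_51_P399664, and fell by 1.16 (SE 0.21, adjusted p = 0.0386 by limma). This probe was dim, and well above background on 1 of 3 En2-/- arrays. Its difference was -0.50 with normexp background correction and -0.49 on the authors' values, neither called. The brighter Cttn probe, A_52_P326214, read 11.21, 11.84 and 12.06 in WT and 11.16, 10.17 and 10.48 in En2-/- mice (-1.10, SE 0.32, adjusted p = 0.114 by limma).

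Both calls lay close to the threshold. Within slides 1, 2 and 3, each holding 1 array of every group, the difference was -1.93, -1.25 and -0.92 for Lrrc4b and -0.90, -1.45 and -1.13 for Cttn A_51_P399664. With the slide (replicate number) as a block both calls were lost (Cttn adjusted p = 0.0900 and Lrrc4b adjusted p = 0.0921 by limma) and Dlg4 A_52_P153721 was the 1 member called (adjusted p = 0.0432 by limma). Leaving out 1 array at a time, Cttn was called in 0 of 6 fits (adjusted p from 0.073 to 0.11 by limma) and Lrrc4b in 1 of 6, without WT replicate 3 (adjusted p from 0.040 to 0.15 by limma).

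The other genes the study singled out for hippocampus did not pass the test here, although En2-/- and WT arrays did not overlap for at least 1 probe of each. The study's own limit was looser, an uncorrected rank product P under 0.005. It listed Dlg4 and Baiap2 as lower and Nrcam as higher in En2-/- hippocampus. It also picked Nlgn2 and Cttn from its hippocampal array list for PCR on pooled RNA, which reported significant changes for both. Dlg4 (PSD-95) read 11.14, 12.11 and 11.34 in WT and 9.32, 10.28 and 10.03 in En2-/- mice by A_52_P153721 (-1.66, SE 0.33, adjusted p = 0.051 by limma). Its second probe read 9.53, 9.77 and 8.97 in WT and 7.74, 8.73 and 8.56 in En2-/- mice (-1.08, SE 0.32, adjusted p = 0.12 by limma). The groups did not overlap for either Dlg4 probe, so a fall on each of the 3 slides follows from that and adds nothing to it. Nlgn2, which assembles inhibitory synapses, read 13.69, 13.72 and 13.33 in WT and 12.56, 12.92 and 12.71 in En2-/- mice (-0.85, SE 0.19, adjusted p = 0.0706 by limma).

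For Baiap2 and Dlgap4 the probes disagreed in size. Baiap2 A_52_P290202 read 11.51, 10.83 and 11.41 in WT and 10.44, 10.55 and 10.02 in En2-/- mice (-0.92, SE 0.24, adjusted p = 0.0988 by limma), but A_52_P38436 read 13.73, 13.81 and 13.49 against 13.17, 13.63 and 13.52 (-0.24, SE 0.19). Dlgap4 A_52_P600038 read 11.04, 10.35 and 10.90 against 9.74, 9.77 and 9.60 (-1.06, SE 0.22, adjusted p = 0.055 by limma), and A_51_P343739 differed by -0.32 (SE 0.25).

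For Nrcam, an adhesion protein of the L1 family, the probes disagreed in sign. A_51_P306247 read 10.39, 10.62 and 10.70 in WT and 11.34, 11.57 and 11.36 in En2-/- mice (0.85, SE 0.18, adjusted p = 0.0542 by limma), the highest difference of all member probes tested. Of the other pair of Nrcam probes, which match downstream, A_51_P180413 read 15.05, 15.20 and 15.01 in WT against 14.59, 14.93 and 15.15 (-0.20, SE 0.20). With 75th percentile scaling that difference was 0.0491, of the opposite sign. A_52_P148222 read 11.86, 11.73 and 11.67 against 11.24, 11.35 and 11.44 (-0.41, SE 0.16, adjusted p = 0.208 by limma). A direction for Nrcam therefore depended on the probe.

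**Figure D3:**
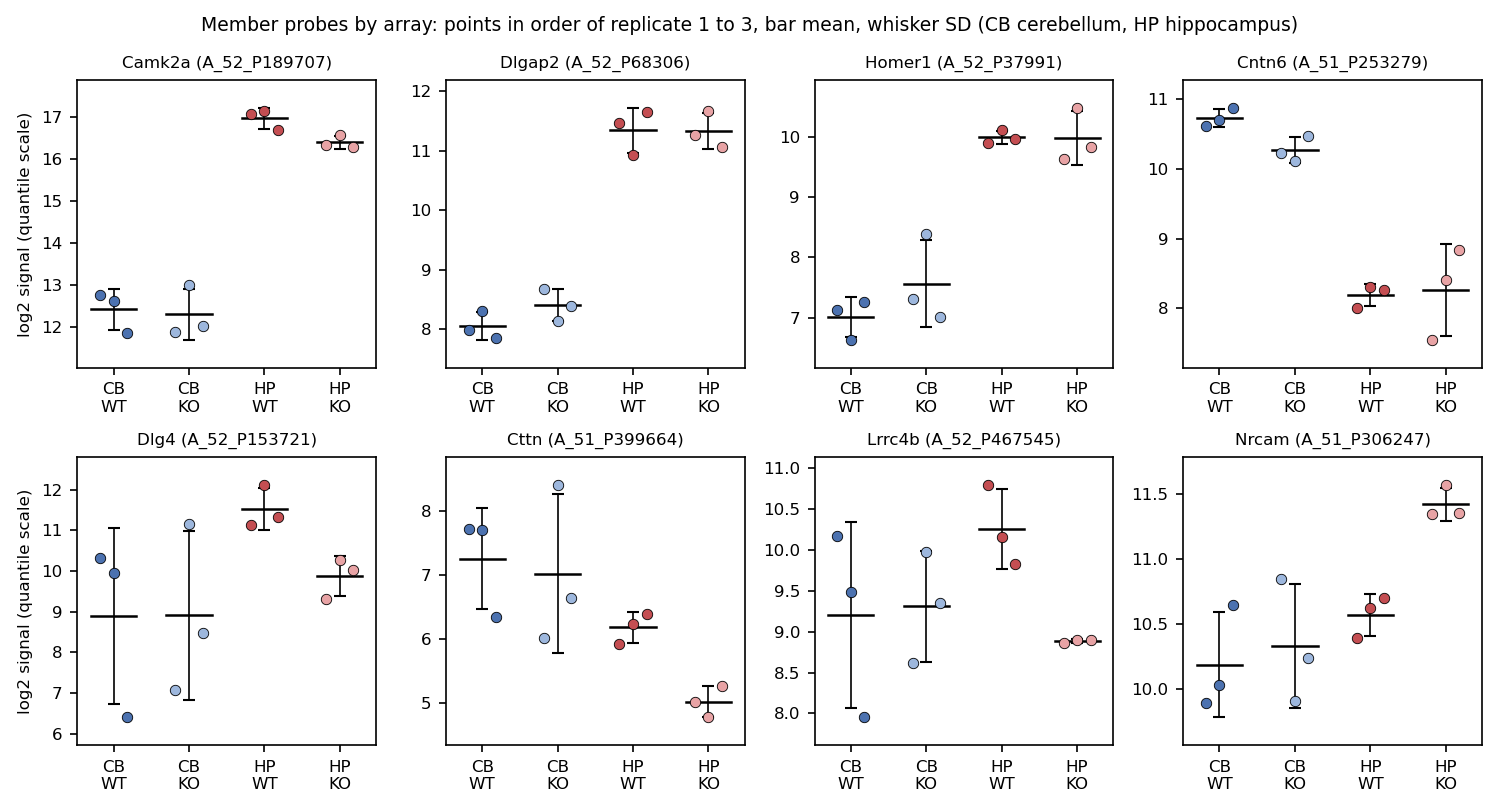
Log2 signal by array (vertical axis, a separate scale for each panel) of 8 member probes in the 4 groups; points are replicates 1 to 3 from left to right, bars are means and whiskers SD (n = 3). Camk2a, Dlgap2 and Homer1 are high in hippocampus and Cntn6 in cerebellum, the En2-/- hippocampus arrays lie below WT for Dlg4, Cttn and Lrrc4b and above WT for Nrcam A_51_P306247, and the cerebellum arrays of Dlg4 spread over more than 3 log2 units within each genotype.

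The remaining hippocampal differences were not called, and some were of a size with those above. Dlgap1 A_51_P520650 read 13.68, 13.64 and 13.25 in WT and 12.32, 13.05 and 12.73 in En2-/- mice, at -0.82. Its other tested probes were at -0.61 and -0.44. Slitrk5 was at -0.64, Slitrk1 at -0.59, and Dlg2 probes between -0.55 and -0.25. Cntnap1 was at -0.62 by A_51_P388086 but at 0.03 by its other probe. Homer1 probes lay between -0.53 and -0.01, Homer2 probes between -0.49 and -0.32, and Cntnap2 probes between -0.63 and -0.23. Of the kinase subunits, Camk2a by its bright probe was at -0.58 (SE 0.19, adjusted p = 0.157 by limma) and Camk2b at -0.27 (SE 0.19). Above 0 were Nlgn1 (0.28), Nlgn3 (0.22), Dlg3 (0.15), Shank1 (0.25) and Lrrtm3 (0.28), none called. The 95% confidence interval reached 0.54 to either side at the median over member probes, with 3 mice a genotype.

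**Figure D4:**
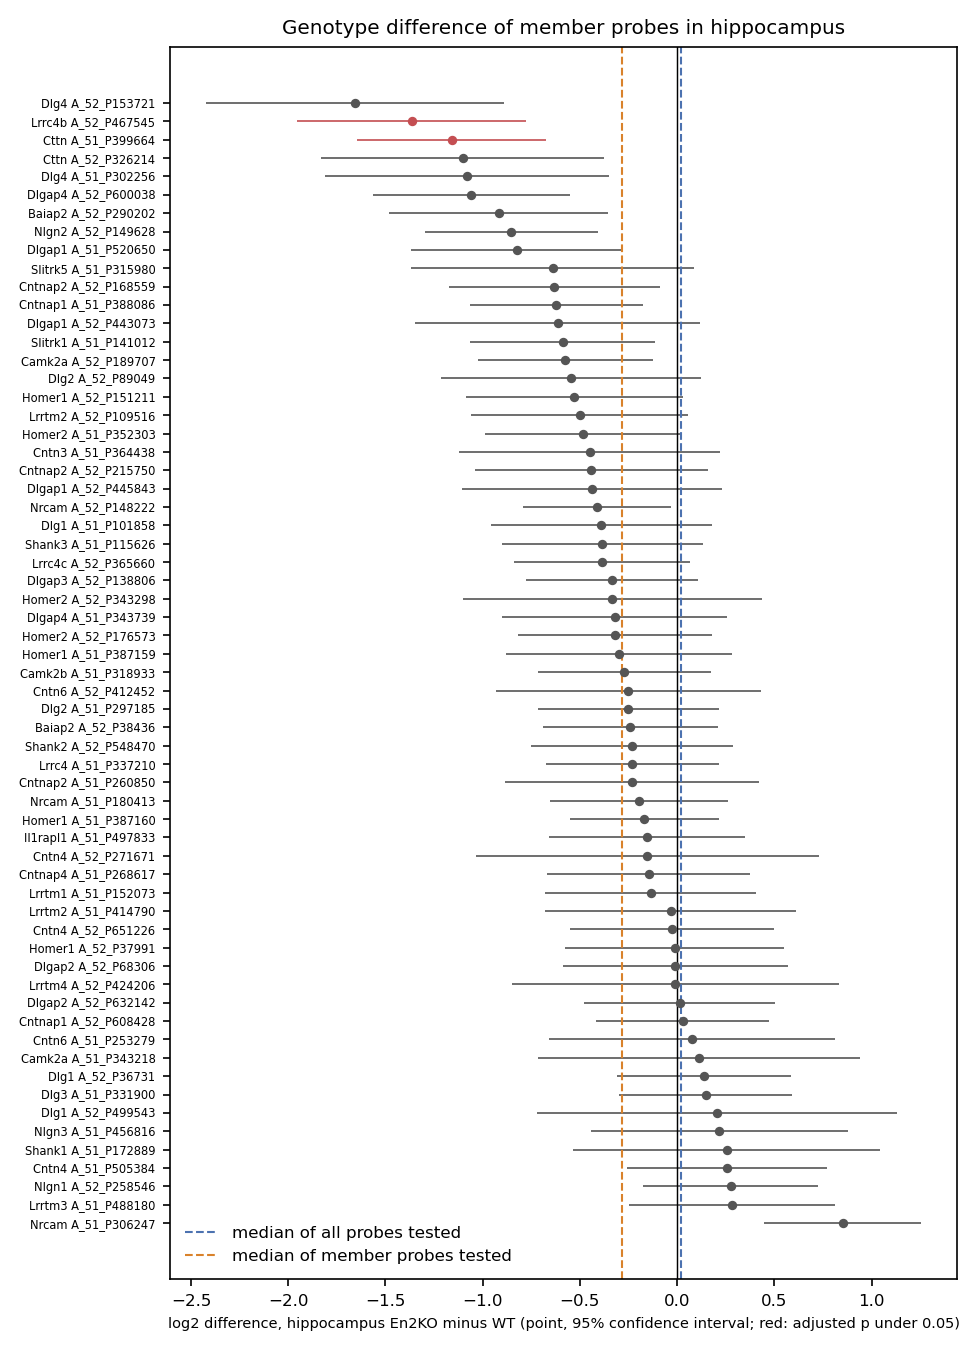
Log2 difference, En2-/- minus WT hippocampus, of the 62 member probes tested (vertical axis, in order of size), with 95% confidence intervals from limma (3 against 3 arrays); the 2 called probes are red and dashed lines mark the medians of all probes (0.02) and of member probes (-0.28). Points lie left of 0 for 49 probes.

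No marker gene of other cells was called between these hippocampus groups, and the levels of the lists were as follows. The mean level of 6 thalamic markers was between 10.5 and 10.9 on En2-/- and between 9.76 and 10.2 on WT arrays, with 5 of the 6 differences above 0. Microglial markers, below 0 in 4 of 5, ranged from 9.82 to 9.95 against 10.4 to 10.5, and endothelial markers, below 0 in 5 of 5, from 9.47 to 9.78 against 10.1 to 10.5. Choroid plexus markers, below 0 in 5 of 5 tested, ranged from 9.26 to 13.7 among En2-/- and from 11.6 to 13.1 among WT arrays. Oligodendrocyte markers were below 0 in 5 of 5 (13.9 to 14.5 against 14.3 to 14.4), and astrocyte markers in 3 of 5 (12.5 to 12.8 against 12.7 to 12.9). The hippocampal defining genes were below 0 in 6 of 8 (12.2 to 12.4 against 12.5 to 12.8). The markers with a probe of the thalamic, glial, endothelial and choroid plexus lists were well above background on all hippocampus arrays, and the part of tissue composition in the members' differences was not tested.

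In cerebellum no member differed between genotypes by the test. Of 63 member probes, 0 were called by limma, against 0.558% of all 27416 probes, and 4 had an unadjusted p under 0.05, or 6.35% against 8.22% of all probes. The rank product, which the study used, called 0 of 36 member genes by brightest probe at its cerebellum limit, against 5.02% of all genes. Those 4 probes were 2 of Dlg1 (0.70 and 0.51), Slitrk5 (0.58, SE 0.24) and Cntn6 A_52_P412452 (-0.57, SE 0.23). The median difference was 0.10 over members and -0.0042 over all probes. The member median was -0.06 without WT cerebellum replicate 3 and -0.08 without En2-/- cerebellum replicate 2, so it had no settled sign. Arrays of the genotypes did not overlap for 14.3% of member probes, against 13.8% of all probes.

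The genes named for hippocampus were, in cerebellum, at 0.02 (SE 1.25) for Dlg4, -0.23 (SE 0.63) for Cttn A_51_P399664, 0.11 (SE 0.57) for Lrrc4b, 0.18 (SE 0.29) for Nlgn2 and 0.14 (SE 0.32) for Nrcam A_51_P306247. The 95% confidence interval reached 0.71 to either side at the median over member probes and 2.89 for Dlg4, whose cerebellar difference was therefore bounded only loosely.

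No marker gene was called in cerebellum either. Purkinje cell markers were below 0 in 6 of 6 (14.4 to 14.6 on En2-/- and 14.7 to 15.3 on WT arrays), cerebellar defining genes in 6 of 8 (14.5 to 14.6 against 14.7 to 15.2), granule cell markers in 3 of 6 (12.9 to 13.5 against 13.1 to 13.3), and choroid plexus markers in 0 of 5 tested (11.6 to 11.8 against 11.1 to 11.4). Their part in the members' values was not tested.

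The genotype effect was not shown to differ between the regions for any member. Of 65 probes, 0 passed the interaction test (cerebellar minus hippocampal En2-/- effect, limma over 12 arrays, against 0.104% of 27919 probes called), and 5 had an unadjusted p under 0.05, 7.69% against 11.5% of all probes. They were Slitrk5 (1.22, SE 0.42), Slitrk1 (1.06, SE 0.40), Nlgn2 (1.03, SE 0.35), Homer2 A_51_P352303 (0.95, SE 0.39) and Dlgap1 A_52_P444618 (1.44, SE 0.60), with adjusted p from 0.34 to 0.40 by limma. The median interaction was 0.46 over members and -0.03 over all probes. Between the 2 tissues, which share no array but may share mice, 24 of 60 member probes had genotype differences of the same sign. The share over all probes was 48.6%.

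The members also varied together among arrays of one group. Of 56 member probes well above background throughout, 34 were lowest of 3 on WT cerebellum replicate 3, 33 on En2-/- cerebellum replicate 1, 36 on En2-/- hippocampus replicate 1 and 31 on WT hippocampus replicate 3, where 35.9% to 40.3% of all probes were lowest. On WT cerebellum replicate 3, 14 of the 56 member probes lay more than 0.5 below their group mean, against 12.1% of all probes. Dlg4 A_52_P153721 was lowest, at -2.49, followed by Shank1 (-1.86), Dlg4 A_51_P302256 (-1.57), Dlgap4 A_52_P600038 (-1.39), Cntnap1 A_51_P388086 (-1.39), Lrrc4b (-1.25), Lrrtm2 A_52_P109516 (-1.03) and Cttn A_52_P326214 (-1.01).

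Several of these are the genes with the lowest En2-/- minus WT differences in hippocampus. That comparison does not use this array, although it may include an array of the same mouse. Across the 56 member probes, the deviation on WT cerebellum replicate 3 and the hippocampal difference had a Pearson r of 0.57 and a Spearman rho of 0.45, and across all 22941 probes of 0.38 and 0.40. These describe probes, which are not independent, and no test was made of them. Thus member probes that were lower in En2-/- than in WT hippocampus tended also to be low on 1 WT cerebellum array, relative to that array's own group. GC content correlated with the differences of member probes at -0.41 in cerebellum and -0.23 in hippocampus by genotype, and at -0.19 and -0.04 over all probes, with the part of probe chemistry or RNA quality not tested. Without WT cerebellum replicate 3, 40 of 65 member probes tested were called between WT regions (9 higher and 31 lower), together 61.5% against 25.9% of all probes in that fit, and 0 between genotypes in cerebellum.

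**Figure D5:**
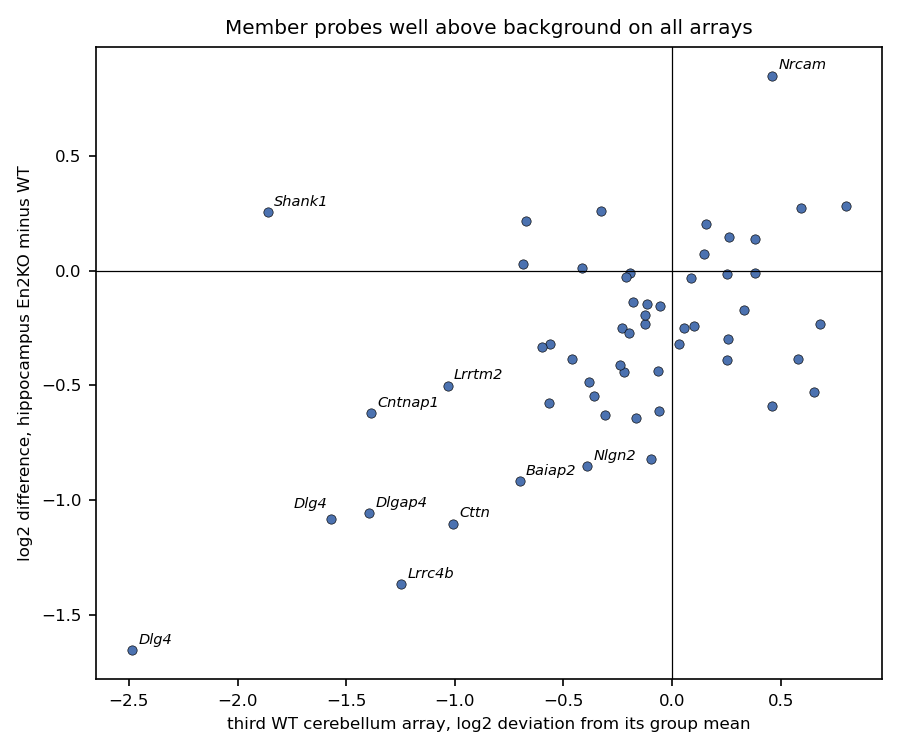
Deviation of WT cerebellum replicate 3 from its group mean (horizontal axis, log2) against the log2 difference En2-/- minus WT in hippocampus (vertical axis), for the 56 member probes well above background on all arrays. Dlg4, Lrrc4b, Dlgap4 and Cttn lie at the lower left, and Nrcam A_51_P306247 lies at the upper right. Shank1 is low on this array but not lower in En2-/- than in WT hippocampus.

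Other synaptic and axonal genes were also more often lower than higher in cerebellum. They were 68 remaining paralogs, scaffold partners and adhesion genes, of which 65 had a probe. In WT mice 5 of 62 tested were higher and 25 lower in cerebellum (48.4% called, against 24.0% of all probes), and in En2-/- mice 6 of 60 were higher and 18 lower (against 24.4%). Their median WT difference was -0.54. By genotype, 0 of 62 were called in cerebellum, against 0.558% of all probes. In hippocampus 2 of 62 were called, or 3.23% against 2.12%, namely Slitrk6 (1.80, SE 0.24, adjusted p = 0.017 by limma) and Cntnap5c (-1.10, SE 0.20, adjusted p = 0.038 by limma), both members of families described above. Their median hippocampal difference was -0.21.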

How the data were processed

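Cy3-labelled cRNA from 12 RNA samples was hybridised to Agilent 4x44K mouse arrays. The deposited scanner files hold spot intensity from the Agilent software, of which the background-corrected, linear-scale processed signal was used. The authors also deposited log2 values, quantile normalized after removal of low-quality probes, which were used as an alternative for the genotype comparisons only, since they appeared normalized separately by tissue. No column was left unmapped to a sample.

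Here spots with outlier flags were left out, log2 signals were quantile normalized over the 12 arrays and spots of a probe averaged. Each comparison was fitted by probe with limma 3.58.1 in R 4.3.3 on its own 6 arrays (12 for the interaction), with Benjamini-Hochberg adjustment. Members and lists (other synaptic and axonal genes, cell type markers) were chosen with earlier results of these data known. Member genes were named by role, with values for each array given for members called by genotype, those the study named in hippocampus, the 5 with the largest called WT region difference each way by brightest probe (3 were higher), and those with called probes of opposite sign. Alternatives were other scaling, background correction (normexp, offset 50), filters and models, the rank product (100 permutations), and leaving out each array. The scripts were tested on simulated data.

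Replicate number was the slide, each slide holding 1 array of every group in a fixed position, so that position and group cannot be told apart. Same-numbered deviations correlated between -0.20 and 0.09 between genotypes and between -0.28 and 0.27 between tissues. Both tissues came from 3 mice of each genotype, but the labels do not say which arrays share a mouse. The comparisons between regions and the interaction therefore treated the tissues as separate mice. P-values measure the spread between 3 mice a group. The number of arrays limits the precision.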

Additional observations from a re-analysis of the deposited data

How the results depend on the processing

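The count of member probes called by genotype in cerebellum, and for the interaction, was 0 under every alternative run, arrays left out included. In hippocampus the count of 2 became 4 with normexp and 4 with the authors' log2 values (Dlgap4, Lrrc4b and Nlgn2 lower, Nrcam A_51_P306247 higher in both), 5 with an intensity trend in the variance (the same 4 and Dlg4 lower), 1 with 1 probe per gene, 1 with the replicate block, 0 without a filter on dim probes, and 0 in 1 model over the 12 arrays. Leaving out 1 array gave between 0 and 1, Dlgap4 A_52_P600038 without WT hippocampus replicate 2 and Lrrc4b without WT hippocampus replicate 3. The rank product called 3 of 37 genes, all lower (Cttn, Dlg4 and Lrrc4b), against 4.19% of all genes. The Cttn difference on its dim probe was -0.50 with normexp and -0.49 on the authors' values. Nrcam A_51_P180413 in hippocampus was 0.0491 with 75th percentile scaling.

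Between regions, 1 probe per gene gave 24 called genes in WT and 19 in En2-/- mice. Leaving out 1 array gave 23 (without WT hippocampus replicate 1) to 40 probes in WT, 24 to 36 in En2-/- mice, and 16 to 20 pairs of related genes. Over all probes, the hippocampal count of 544 became 185 without a filter, 200 with 1 probe per gene, 146 with the replicate block and 319 in 1 model. In cerebellum 153 became 66 without a filter, 90 with every array above background and 267 in 1 model, and for the interaction 29 became 13 on the authors' values, 10 with every array above background and 17 with the replicate block. The replicate block changed no other count of member calls by more than 1.5 times. The cause of these changes was not tested. Region and pair results on the authors' values were not run, because the tissues appeared normalized apart. With 3 arrays a group, the number of arrays limits what small differences can be told from 0.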
